A study of Rattus norvegicus with 30 samples.

Results

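Kidneys taken 10 h after the higher of 2 doses of mercury chloride (HgCl2) were compared with kidneys taken 10 h after the lower dose. The libraries were chosen by their labelled dose and time alone: 5 of the high dose (0.50 mg/kg HgCl2) and 5 of the low dose (0.25 mg/kg HgCl2), 10 of the 30 libraries in all. Rats that received saline (1 ml/kg) and were sampled at 10 h, 5 libraries, served as the vehicle level. The 5 high dose and 5 low dose libraries of 34 h gave the same contrast at a later time. All animals were Sprague-Dawley rats, an outbred stock, so that animals of 1 group also differ in their genes. Each library holds poly-A RNA of a whole powdered kidney, in which fewer cells of a type and less RNA per cell cannot be told apart. The labels give no age, sex or route of dosing. The question was whether doubling the dose enlarges the early shifts or moves other transcripts, and how far single animals decide the answer.

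Mercuric ions bind thiol groups of proteins and of glutathione. In the kidney they are carried into proximal tubule cells, largely as conjugates with cysteine by organic anion transporters, and the straight part of the proximal tubule is known as the site of the first necrosis. Cells that take up the metal are known to respond with metallothioneins and with enzymes of glutathione synthesis. The transcripts here carry Ensembl transcript IDs that neither the files nor the reference table pair with genes, so no transcript below can be assigned to these responses. For the same reason the tissue label could not be checked against marker genes.

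The depths of the dose groups overlapped. Counts on transcripts ranged from 26.7 to 33.9 M (1 M is 1000000 counts) in the high dose and from 26.0 to 39.1 M in the low dose libraries (exact permutation p = 0.81, two-sided). Genomic intervals, the targets outside annotated transcripts, took 5.96 to 6.93% of counts in the high dose and 6.42 to 6.92% in the low dose (exact permutation p = 0.881). No 2 libraries of 1 dose agreed within sampling noise, the lowest chi-square divided by its degrees of freedom being 18.58. In the numbering of the libraries the low dose runs from 31 to 35, the vehicle from 36 to 40 and the high dose from 56 to 60. Dose and any batch in the order of these numbers cannot be told apart.

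No transcript passed the test between the high and the low dose. Of 21112 transcripts tested with edgeR's quasi-likelihood test, 0 (0%) had an adjusted p under 0.05, and the smallest was 0.0669. The unadjusted p was under 0.05 in 3633 transcripts, 17.2% of those tested, of which 1913 (9.06%) were higher and 1720 (8.15%) lower after the high dose. The adjusted p was under 0.10 in 47. DESeq2 called 1120 of the 14930 transcripts to which it gave an adjusted p, and limma voom with quality weights called 2412 of 21112. In 1 fit of the 15 libraries of 10 h edgeR called 184, and in 1 fit of all 30 libraries 674. The count of 0 thus changed with the method and with the libraries in the fit. Differences were small: among 12949 transcripts with a mean of at least 5 CPM (counts per 1000000, scaled with edgeR's TMM factors), the median size of the log2 difference was 0.15 and the median SE 0.12. A log2 difference of at least 1 in size was found in 76 of them (0.587%), 57 higher and 19 lower after the high dose.

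The transcripts shown one by one have the smallest p among those with a mean of at least 5 CPM, 2 higher and 2 lower after the high dose. Their differences were the basis of the choice and are given as a description. ENSRNOT00000026821 stood at 76.4, 71.6, 69.2, 82.2 and 78.4 CPM in the kidneys of the high dose and at 46.3, 49.6, 43.5, 55.4 and 45.5 CPM in the low dose kidneys. Every high dose kidney lay above every low dose kidney, and the nearest low dose kidney was replicate 4. Its log2 difference was 0.65 (SE 0.08, edgeR adjusted p = 0.0669, n = 5 per dose). The vehicle kidneys held 60.2, 48.3, 58.5, 45.1 and 68.2 CPM, which spans the range from the low dose to just below the high dose. Against the vehicle, the high dose differed by log2 0.43 (edgeR adjusted p = 0.209) and the low dose by -0.22 (edgeR adjusted p = 0.577).

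ENSRNOT00000025217, a short transcript of 567 bases, held 196.5, 215.9, 171.2, 215.9 and 200.2 CPM in high dose kidneys, against 107.2, 95.9, 106.2, 104.3 and 137.6 CPM in low dose kidneys. The doses did not overlap, and low dose replicate 5 stood nearest to the high dose. The log2 difference was 0.85 (SE 0.11, edgeR adjusted p = 0.0669). Among the vehicle kidneys, 4 were at 86.2 to 109.5 CPM, within or below the range of the low dose. Vehicle replicate 4 was at 166.0 CPM, close to the lowest high dose kidney. The group means of low dose and vehicle, 110.2 and 110.7 CPM, were 0.01 apart on the log2 scale (-0.01, edgeR adjusted p = 0.993), and the high dose lay 0.85 above the vehicle (edgeR adjusted p = 0.174). Its counts were partly shared with other targets. With a trend with transcript length taken out, an alternative chosen after the data had been seen, the difference between the doses was 0.65, and 0.52 when high dose replicate 2 and low dose replicate 4 were also left out.

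ENSRNOT00000024922 was lower after the high dose. It held 18.7, 19.8, 17.6, 19.2 and 19.1 CPM in high dose kidneys, against 25.9, 25.6, 26.3, 23.8 and 26.7 CPM in low dose kidneys. The doses were separate, with low dose replicate 4 and high dose replicate 2 nearest to each other. The log2 difference was -0.45 (SE 0.06, edgeR adjusted p = 0.0765). The vehicle kidneys, from 21.4 to 26.1 CPM, lay in the gap between the doses or overlapped with the low dose, and none reached the high dose. ENSRNOT00000028763 held 14.0, 13.5, 13.2, 12.1 and 14.5 CPM in high dose kidneys, against 18.2, 18.9, 21.4, 19.4 and 20.3 CPM in low dose kidneys, a log2 difference of -0.55 (SE 0.08, edgeR adjusted p = 0.0765). Here all 5 vehicle kidneys, at 14.6 to 17.5 CPM, lay between both doses. The high dose was below the vehicle by log2 -0.27 (edgeR adjusted p = 0.218) and the low dose above it by 0.27 (edgeR adjusted p = 0.551).

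**Figure D1:**
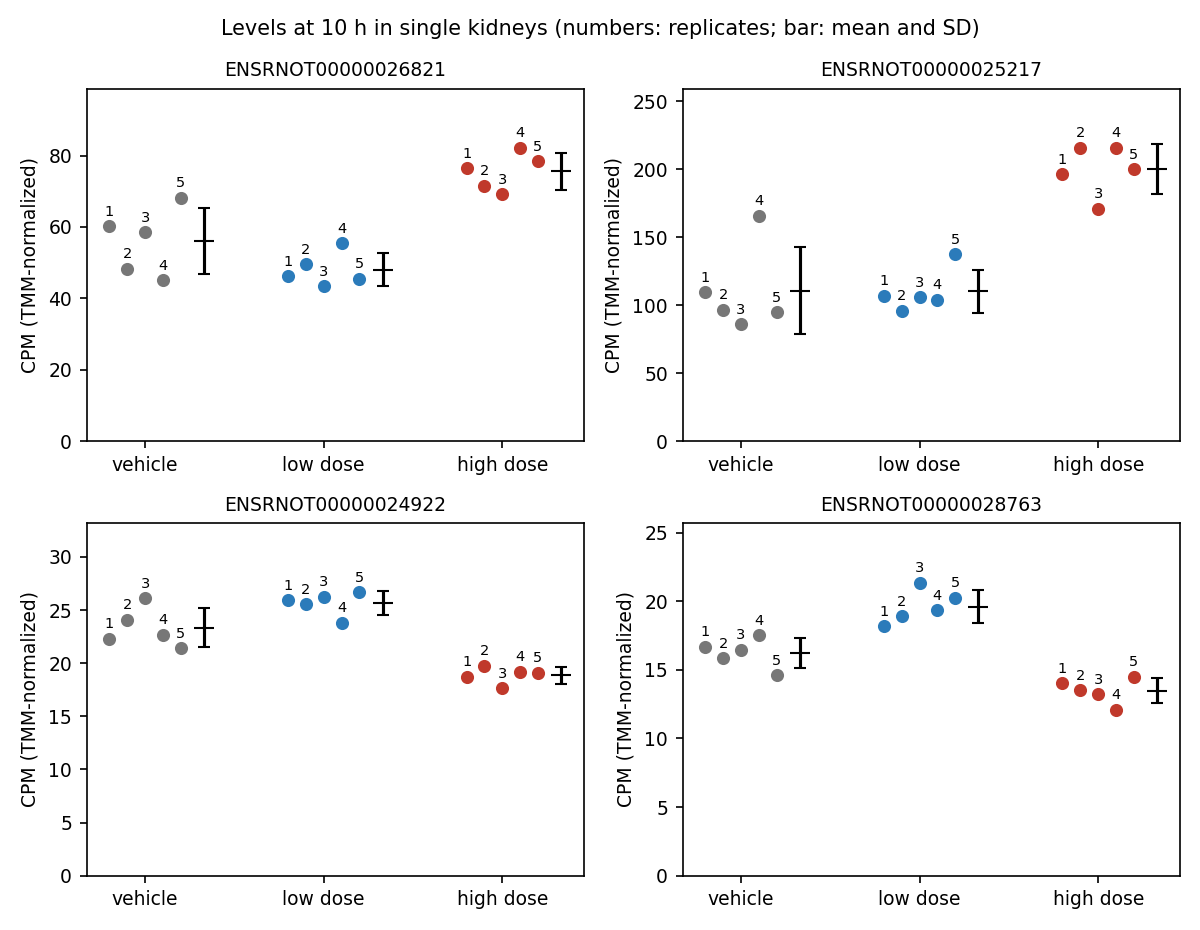
Level of the 4 transcripts in each kidney of 10 h (vertical axis, CPM from 0; horizontal axis, group; numbers mark replicates; bars give the mean and SD, n = 5). In all 4 panels the high and low dose kidneys do not overlap. The vehicle kidneys lie between the doses or within the range of the low dose, except in ENSRNOT00000025217. There vehicle replicates 3 and 5 (86.2 and 95.0 CPM) lie below every low dose kidney.

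By the same rule, a longer list took the 20 higher and 20 lower transcripts of smallest p with a mean of at least 5 CPM. It includes the 4 transcripts shown above and is no separate support for them. Log2 differences ran from 0.35 to 1.08 (median 0.62) in the higher list and from -0.97 to -0.39 (median -0.53) in the lower list, with edgeR adjusted p of 0.0669 to 0.0997. All 40 had dose groups that did not overlap. Of all tested transcripts, 783 (3.71%) had such groups, 431 (2.04%) with every high dose kidney above and 352 (1.67%) with every one below the low dose. The choice by p makes this no result about the 40. The vehicle was not used in the choice. Its mean lay between the dose means in 19 of 20 transcripts of each list, beside 44.3% of all tested transcripts. A wide gap between the doses leaves more room for a value between them, so these shares are not on equal terms. Over the 40 transcripts and 5 vehicle kidneys there were 200 vehicle values: 95 reached the nearest low dose kidney or went past it, 29 did so on the high dose side, and 76 lay between the doses.

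**Figure D2:**
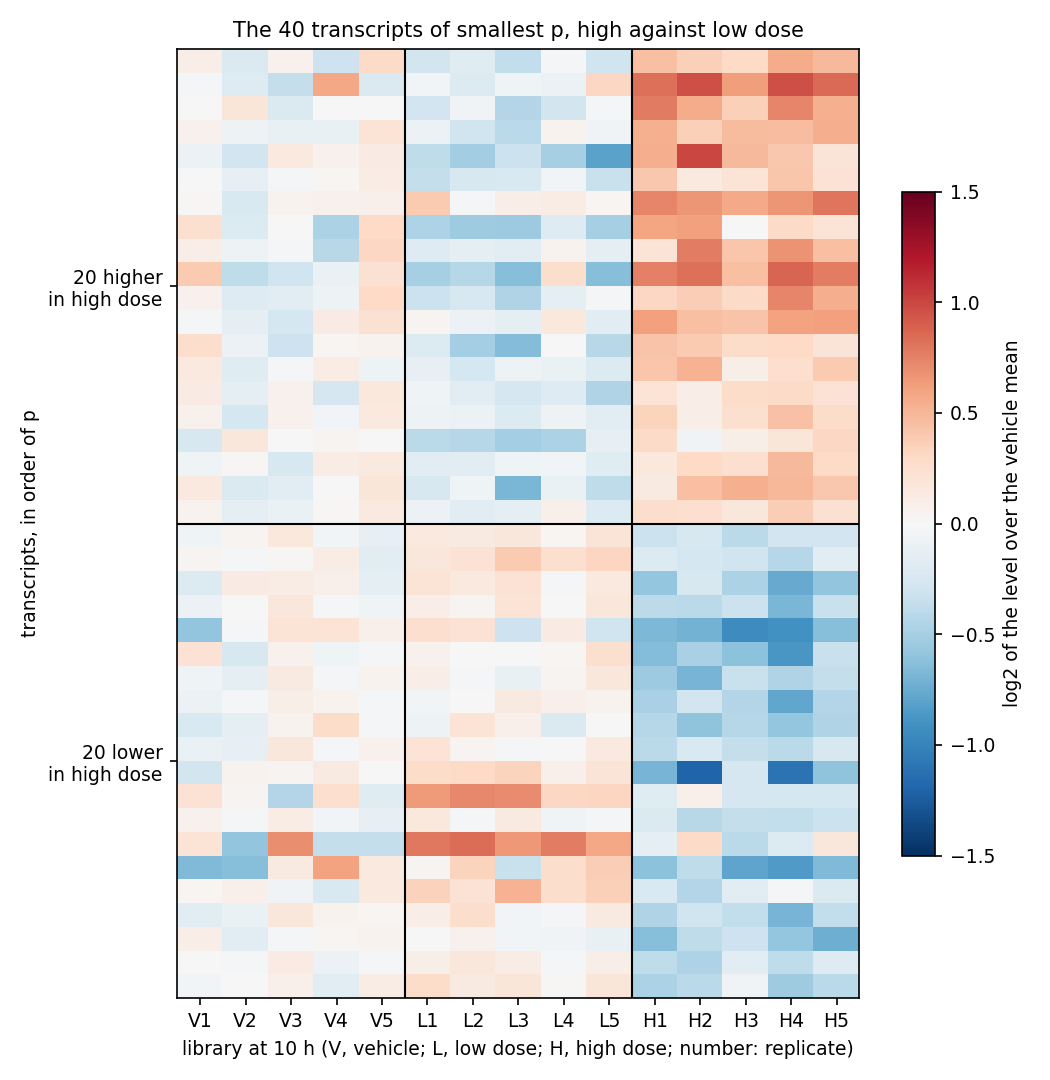
Level of the 40 transcripts in each kidney of 10 h as log2 of the ratio to the vehicle mean (colour), with kidneys in columns and transcripts in rows, in order of p within each list. The high dose columns are mostly red in the higher and blue in the lower list, while the low dose columns carry paler colours, many of the opposite sign.

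The group means of most of these transcripts were not in the order of the dose. The lists were chosen on the difference between the doses, which favours low and high dose means on opposite sides of the vehicle mean. The order of the means in these lists therefore cannot show whether doubling the dose enlarges the shifts of the low dose. In the higher list the low dose differed from the vehicle by a median log2 of -0.21 (-0.50 to 0.13) and the high dose by 0.42 (0.17 to 0.85). In the lower list these medians were 0.10 (-0.02 to 0.73) and -0.42 (-0.77 to -0.04). Both comparisons use the same 5 vehicle kidneys, and the lists were chosen on the difference between the doses, so the values are a description. For the high dose against the vehicle, edgeR called 1 of all tested transcripts (0.00474%), which is in the higher list. With 1 kidney left out, 8 of the 10 fits gave 0 calls, and the 1 call without vehicle replicate 1 was a transcript lower after the high dose. An unadjusted p under 0.05 was found in 18 of the 20 higher and 17 of the 20 lower transcripts, beside 14.1% of all tested. For the low dose against the vehicle edgeR called 0, and 6 transcripts of each list had an unadjusted p under 0.05, beside 9.02% of all tested. The counts in the lists reuse the dose kidneys by which the lists were chosen. They are therefore not on equal terms with the shares of all tested.

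A slope on the dose over the 15 kidneys of 10 h and a departure from that slope were tested in all transcripts. For the slope, 0 of 21112 transcripts (0%) were called by edgeR, 440 by DESeq2 and 3 by limma voom. Its unadjusted edgeR p was under 0.05 in 2910 (13.8%). For the departure (high dose plus vehicle minus 2 times the low dose), 0 (0%) were called by edgeR, 312 by DESeq2 and 1916 by limma voom. Its unadjusted edgeR p was under 0.05 in 2895 (13.7%). Leaving out low dose replicate 4 gave 248 departures, leaving out high dose replicate 2 gave 27 and leaving out high dose replicate 1 gave 1. The slope gave 10 calls without vehicle replicate 4, 2 without vehicle replicate 5 and 1 without high dose replicate 2. For ENSRNOT00000028763 the departure was log2 -0.82 (SE 0.12, edgeR adjusted p = 0.156), and for ENSRNOT00000026821 it was 0.87 (SE 0.18, edgeR adjusted p = 0.166). Neither a step in proportion to dose nor a departure from it was thus detected with edgeR at 5 kidneys per group.

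Single kidneys decided the number of calls between the doses. Leaving out low dose replicate 4 gave 202 calls (0.957%), 99 higher and 103 lower after the high dose. Leaving out high dose replicate 2 gave 184 calls (0.872%), 101 higher and 83 lower. Leaving out low dose replicate 5 gave 1, and each of the other 7 libraries left 0. The 2 sets of calls shared 61 transcripts, all in the same direction, which is 33.2% of the 184 and 30.2% of the 202. Of the 3633 transcripts with an unadjusted p under 0.05, 1876 stayed under it with each of the 10 libraries left out. Of the 76 transcripts of the larger differences, with a log2 size of at least 1, 18 fell under that size without high dose replicate 2 and 7 to 13 without each other library.

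With both of these kidneys left out, 3737 transcripts were called (17.7%), 1839 higher and 1898 lower after the high dose. This pair was picked with the results known and gave the most calls of the 25 pairs of 1 high dose and 1 low dose library. The next was high dose replicate 3 with low dose replicate 4, at 412, and 19 of the 25 pairs left 0 calls. The 3737 calls are therefore no test of the dose and describe the remaining 4 kidneys of each group. All 184 and all 202 of the calls above were among them. Their median log2 size was 0.45 without the pair and 0.31 with all 10 kidneys, and 322 differed by over 2-fold. Dose groups that did not overlap were found in 5053 transcripts (23.9%) without the pair. The 4 transcripts shown above were called here and in each of the 2 fits without 1 kidney of the pair, with log2 differences without the pair of 0.72, 0.80, -0.49 and -0.55.

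**Figure D3:**
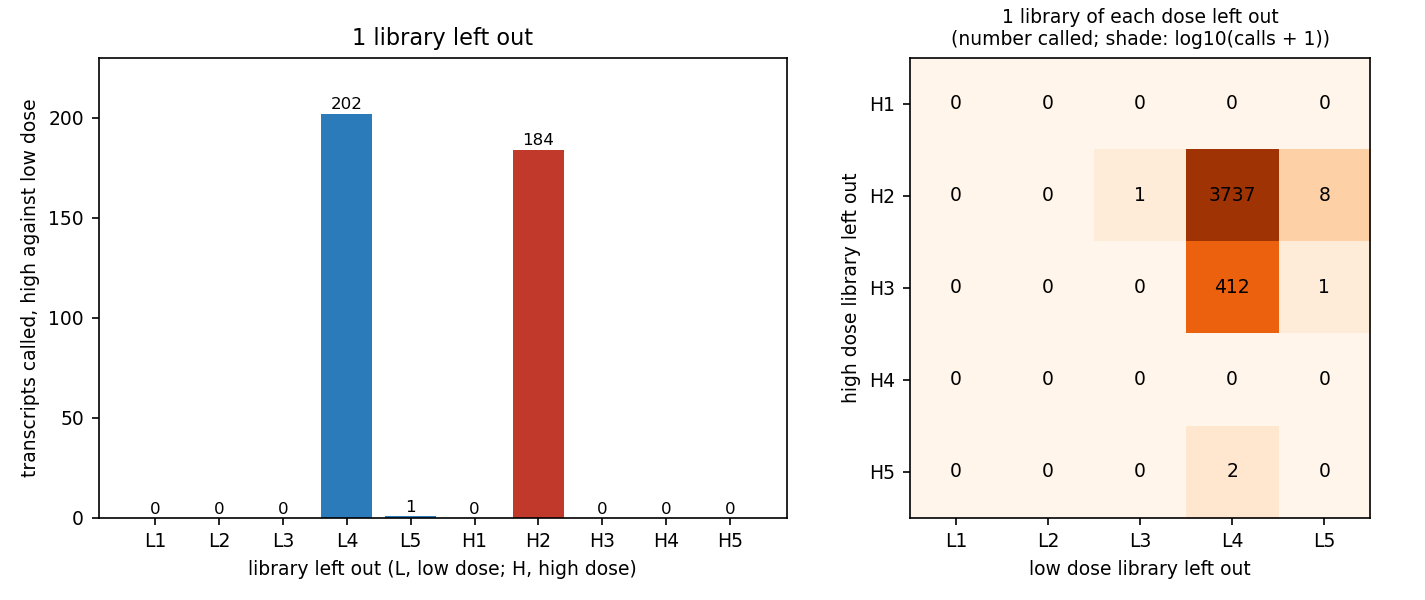
Number of transcripts called by edgeR between the doses with 1 library left out (left, bars from 0) and with 1 library of each dose left out (right, number in each field, shade on a log10 scale). The bars of low dose replicate 4 (202) and high dose replicate 2 (184) stand alone, and the field of both together holds 3737.

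These 2 kidneys lay toward the other dose. In the 184 transcripts called without high dose replicate 2, that kidney was on the high dose side of the midpoint between the dose means in 69. In the 202 called without low dose replicate 4, that kidney was on the low dose side in 60. Neither kidney took part in the fit concerned, but a fit gains calls when a kidney that goes against the difference is removed. Among the 3737, high dose replicate 2 was on the side of its own dose in 1269 and low dose replicate 4 in 859. Their depths, 26.7 and 26.0 M, were the lowest of their groups, and their shares of genomic intervals were 5.96 and 6.64%. The part of depth in the result was not tested.

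The whole profile gave the same order of kidneys. Each library was placed on the line from the low dose mean to the high dose mean, over 12925 transcripts with a mean of at least 5 CPM, with -1 for the low dose mean, 1 for the high dose mean and the library itself left out of the means. High dose replicates 1 to 5 were at 0.60, -1.08, -0.01, 1.48 and 1.07. Low dose replicates 1 to 5 were at -0.65, -1.18, -1.12, 0.75 and -0.79. High dose replicate 2 thus lay at the low dose mean and low dose replicate 4 near the high dose mean, and the groups overlapped through both. The positions share libraries and were not tested. Low dose replicate 4 was nearer to the mean of the high dose than to that of the other low dose kidneys (0.31 and 0.42 log2 units, root mean square over transcripts), and its distance to the vehicle mean was 0.30. High dose replicate 2 was far from both (0.59 from the other high dose kidneys and 0.50 from the low dose mean), and 211 of its transcripts lay over 2-fold above and 85 over 2-fold below all 9 other kidneys. In the other 9, at most 31 were above and 38 below.

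Kidneys without mercury were spread along the same line. The vehicle kidneys of 10 h were at 0.43, -0.51, -0.69, -0.28 and 0.09, and those of 34 h at -0.12, 0.26, 0.58, 0.88 and -0.20. Among the 3737 transcripts, 986 to 2917 were on the high dose side of the midpoint in single vehicle kidneys of 10 h, and 1991 to 3380 in those of 34 h. Untreated kidneys thus lay from -0.69 to 0.88 on a line whose ends, -1 and 1, are the dose means. Of the variance of the whole profile, 16.1% lay between the doses (exact permutation p = 0.111, one-sided, over all assignments of the kidneys to the doses). It was 24.2% when high dose replicate 2 was left out (exact permutation p = 0.0317) and 21.6% without low dose replicate 4 (exact permutation p = 0.0476). Without both it was 33.4% (exact permutation p = 0.0286, the smallest that 70 assignments can give). With each other kidney left out, the exact permutation p was 0.103 to 0.183. Both kidneys were picked with the results known, and removing a kidney that goes against the difference raises this share. The fits without them are therefore no test of the dose.

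**Figure D4:**
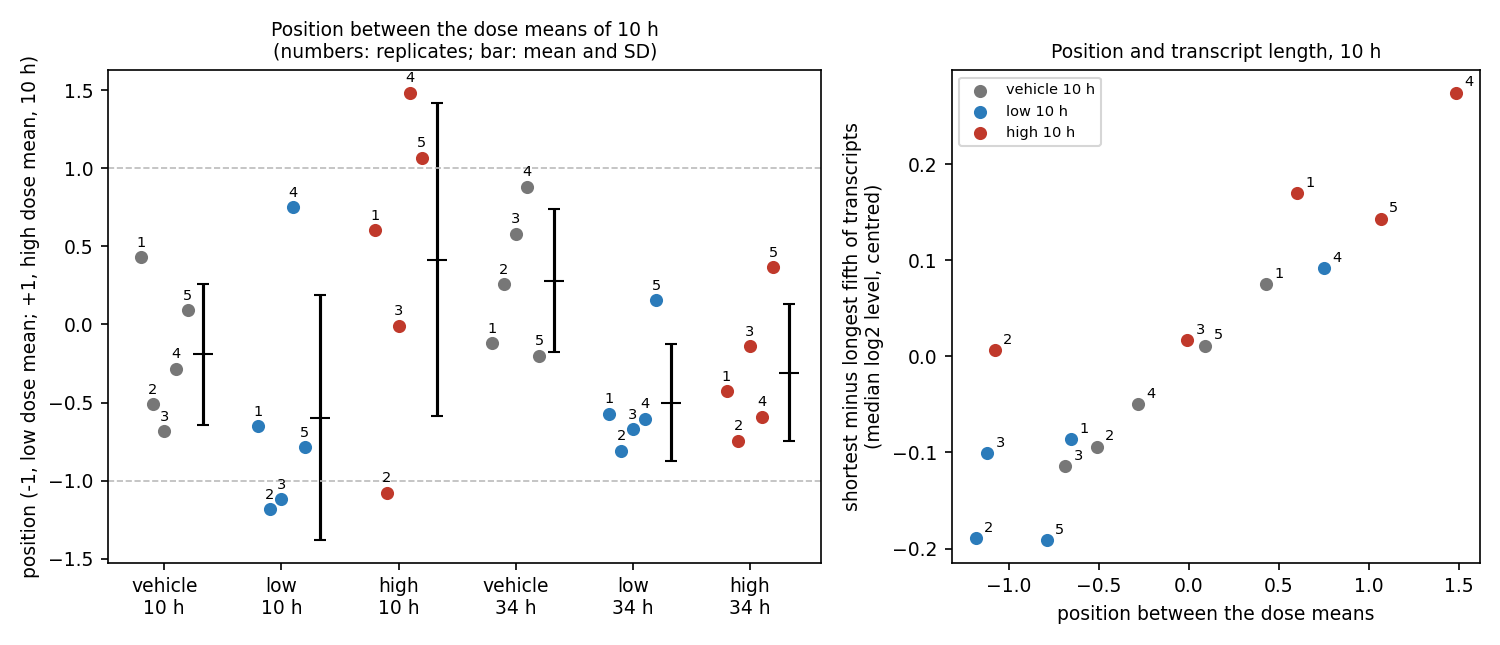
Left, position of each of the 30 kidneys between the dose means of 10 h (vertical axis, no unit; dashed lines mark the means; numbers mark replicates; bars give the mean and SD, n = 5). Right, for the 15 kidneys of 10 h, the median centred log2 level of the shortest of 5 length classes of transcripts minus that of the longest class (vertical axis) against the same position (horizontal axis). Low dose replicate 4 lies above the other low dose kidneys in both panels. High dose replicate 2 lies at the low dose end of the position, and vehicle kidneys spread from -0.69 to 0.88.

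Short transcripts were higher and long transcripts lower after the high dose. The median log2 difference between the doses went from 0.13 in the shortest of 5 near-equal classes of transcripts (42 to 1157 bases) through 0.09, 0.03 and -0.03 to -0.13 in the longest class (3675 to 25658 bases). Per kidney, the median centred log2 level of the shortest minus the longest class was 0.17, 0.01, 0.02, 0.27 and 0.14 in the high dose. It was -0.09, -0.19, -0.10, 0.09 and -0.19 in the low dose and 0.08, -0.09, -0.11, -0.05 and 0.01 in the vehicle. Low dose replicate 4 was above the other low dose kidneys, within the range of the high dose kidneys and nearest to vehicle replicate 1, and high dose replicates 2 and 3 stood between the groups. The difference of the dose means, 0.22, had an exact permutation p of 0.0238 (two-sided; 0.0952 after adjustment over 4 library measures). The fits given next take this measure out. Because its dose means were 0.22 apart, they also take out any dose effect that goes with length. The part of the measure in the calls between the doses was therefore not tested.

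**Figure D5:**
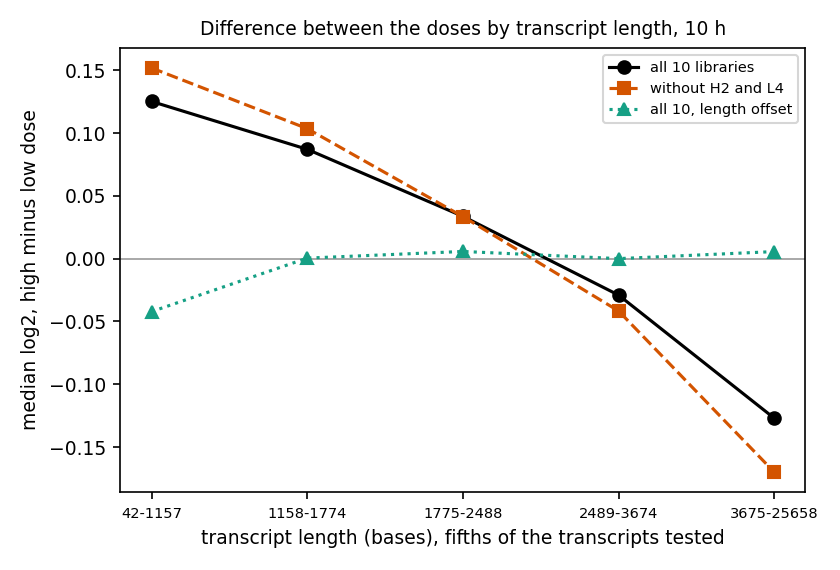
Median log2 difference between the doses (vertical axis, high minus low) in 5 classes of the tested transcripts by length (horizontal axis, bases), for all 10 libraries, without high dose replicate 2 and low dose replicate 4, and with a length trend taken out. The black line falls from 0.13 to -0.13, and the line without both kidneys is steeper, from 0.15 to -0.17.

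With the length trend of each library taken out as an offset, edgeR called 0 transcripts with all 10 kidneys (2977 at an unadjusted p under 0.05). Against the fits without the offset, the calls went from 184 to 64 when high dose replicate 2 was left out, from 202 to 3 when low dose replicate 4 was, and from 3737 to 2308 with both left out. Of the 3737 calls without both, 1915 were also called with the offset, 1913 of them in the same direction. The 2308 calls were split 970 higher and 1338 lower after the high dose, against 1839 and 1898 without the offset.

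At 34 h, in 10 other kidneys, fewer transcripts had a small p between the doses. No transcript was called by edgeR (0, 0%) and 4 were called by DESeq2. The unadjusted edgeR p was under 0.05 in 678 (3.21%). High dose replicates 3 and 4 of 34 h lay 0.51 and 0.60 log2 units from the high dose mean of 10 h. The other kidneys of 34 h lay 0.28 to 0.38 from it. The part of these 2 kidneys in the number of small p was not tested. Of the 3633 transcripts with an unadjusted p under 0.05 at 10 h, 60.3% differed in the same direction at 34 h, beside 55.0% of all tested transcripts. Of the 3737 called without the 2 kidneys of 10 h, 2145 (57.4%) differed in the same direction at 34 h. In that fit 52.8% of all tested transcripts did so. Among the 3737, 107 (2.86%) had an unadjusted edgeR p under 0.05 at 34 h, beside 3.21% of all tested. In the higher list of 20 transcripts, 14 were in the same direction at 34 h (median log2 0.06), and in the lower list 10 of 20 (median 0.00). The means of ENSRNOT00000026821 at 34 h were 55.9 ± 4.93 CPM for high dose kidneys and 52.3 ± 5.44 CPM for low dose kidneys (SD, n = 5), a log2 difference of 0.10 (SE 0.09, edgeR adjusted p = 0.999). ENSRNOT00000025217 stood at 111.0 ± 29.7 and 126.5 ± 35.2 CPM, a log2 difference of -0.19 (SE 0.22, edgeR adjusted p = 0.999).

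Whether the difference between the doses changed from 10 to 34 h was tested over the 20 kidneys of both times. edgeR called 2 (0.00947%), both higher after the high dose at 10 h and lower at 34 h, and the unadjusted p was under 0.05 in 1727 (8.18%). The count was 6 without high dose replicate 2 of 10 h, and 0 without any 1 of 9 other kidneys. The change was log2 -0.55 for ENSRNOT00000026821 (SE 0.12, edgeR adjusted p = 0.297) and -1.04 for ENSRNOT00000025217 (SE 0.26, edgeR adjusted p = 0.428). It was 0.36 for ENSRNOT00000024922 (edgeR adjusted p = 0.543) and 0.51 for ENSRNOT00000028763 (edgeR adjusted p = 0.395). In all 4 the change was opposite in sign to the difference at 10 h, from which they were chosen.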

How the data were processed

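The deposited estimated counts of each library come from kallisto 0.42.2, with genome build Rnor_6.0, per the submitters' processing notes. Where a read pair fits several targets, kallisto splits it, and 8256 of the transcripts tested (39.1%) had whole counts in all 30 libraries (within 1e-06). The authors' TPM values, per the file headers, were used in 1 alternative only. No annotation release is named in these notes. Of 65166 targets, the 40071 Ensembl transcripts were analysed and the genomic intervals left out of library sizes. The reference tables list 47357 genes, and 0 of their cells hold an Ensembl transcript ID.

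Estimated counts were rounded and filtered with filterByExpr over the 30 libraries. Each of the 7 comparisons was fitted with edgeR 4.0.16 (quasi-likelihood test, robust, TMM) on the libraries of its groups. A call is a Benjamini-Hochberg adjusted p under 0.05 over all transcripts. SE is the size of the log2 difference divided by the square root of F. Levels are CPM after TMM over the 30 libraries; profile measures used log2(CPM + 0.5). Transcripts named are the first 2 in each direction by unadjusted p among those with a mean of at least 5 CPM. The samples, lists and tests were chosen with earlier results of these data known. The scripts were tested on simulated data. DESeq2 1.42.0 and limma 3.58.1 gave alternatives, in R 4.3.3, with exact permutation tests in scipy 1.17.1. Library numbers are unique, so they pair no samples.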

Additional observations from a re-analysis of the deposited data

Results flagged for a closer look

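In groups of 5, a kidney was marked when its gap to the nearest other exceeded 0.71 of the group's range. This was looked for in 30 sets of values of the 10 h groups, and 5 were marked. Chance marks about 1 in 20 sets of independent normal values, but positions and distances share libraries and the transcripts were chosen by p. The 5 marks can therefore not be set against that rate. Low dose replicate 4 had a position of 0.75 between the dose means, far above the other 4 low dose kidneys. High dose replicate 2 was 0.593 log2 units from the other high dose kidneys. Low dose replicate 5 held 137.6 CPM of ENSRNOT00000025217. Among the vehicle kidneys, replicate 2 was 0.46 log2 units from the others and replicate 4 had 8.86% of its counts on genomic intervals.

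The 2 transcripts whose difference between the doses changed from 10 to 34 h stood 5th and 12th by p at 10 h, and both are among the 20 higher transcripts described above. One held 13.8 ± 1.60 CPM in the high and 7.90 ± 0.93 CPM in the low dose at 10 h (SD, n = 5), and 10.2 ± 1.36 and 12.7 ± 1.15 CPM at 34 h. Its change was log2 -1.12 (SE 0.16, edgeR adjusted p = 0.0224). The vehicle stood at 9.12 ± 0.88 and 10.9 ± 1.69 CPM. The other held 75.5 ± 6.42 and 52.8 ± 4.79 CPM at 10 h and 58.5 ± 2.46 and 65.6 ± 5.86 CPM at 34 h, with the vehicle at 62.1 ± 3.67 and 69.8 ± 5.58 CPM. Its change was log2 -0.68 (SE 0.10, edgeR adjusted p = 0.0346). In both, high and low dose did not overlap at 10 h. Neither had whole counts, and 0 transcripts were called in 9 of 20 fits with 1 kidney left out: low dose replicates 1 and 3 and high dose replicates 1, 4 and 5 of 10 h, and low dose replicates 2 and 5 and high dose replicates 3 and 4 of 34 h.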

How the results depend on the processing

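Between the doses at 10 h, the edgeR count of calls stayed 0 with DESeq2's size factors, without the filter, with the spread not estimated robustly and with intervals included. The count was 1 with at least 5 CPM in 5 libraries, 4 with limma on log2(TPM + 1), 30 of 8256 transcripts with whole counts, 184 in 1 fit of the 15 libraries of 10 h and 674 in 1 fit of all 30. It was 1120 with DESeq2, which gave no adjusted p to 6182 transcripts, and 2412 with limma voom. Leaving out 1 library gave 0 to 202 calls and 1 of each dose 0 to 3737. With the length offset, added after the data had been seen, it was 64, 3 and 2308 with high dose replicate 2, low dose replicate 4 or both left out. The 4 named transcripts kept their direction in all alternatives that gave a value (49 or 50 each), and 10 to 13 of these called them. They were chosen by p in these same kidneys and their dose groups did not overlap. Leaving kidneys out could thus hardly reverse the direction, so this is a description. The slope on dose gave 440 calls with DESeq2, 3 with limma voom and 0 to 10 with 1 library left out. The departure gave 312, 1916 and 0 to 248. High dose against vehicle (1 call) gave 0 with DESeq2's size factors and without the filter, 975 with DESeq2 and 0 to 1 with 1 library left out. Low dose against vehicle (0 calls) gave 76 with DESeq2 and 0 to 3 with 1 library left out. High against low dose at 34 h gave 4 with DESeq2 and 0 in all 10 fits with 1 library left out. The change between the times (2 calls) gave 37 with DESeq2, 12 with limma voom, 1 without the filter and 0 to 6 with 1 library left out. The share of variance was 14.8 to 24.2% with 1 library left out and 33.4% without both kidneys. The difference in depth ranged from -2.21 to 1.08 M and that in genomic intervals from -0.12 to 0.12 percentage points. The cause of these changes was not tested. No paired analysis was possible because the labels give no replicate numbers that the groups share.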
